A study of Homo sapiens with 8 samples.

Results

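Replication-dependent histone genes are the clustered gene copies that supply most histone protein while DNA is being copied. They were taken as the protein-coding rows of the deposited table whose gene name begins with HIST followed by a cluster number from 1 to 4 and the letter H. The rule found 71 genes among 58735 rows, of which 19951 were protein-coding. By name, 6 encode the linker histone H1, 17 encode H2A, 18 encode H2B, 15 encode H3 and 15 encode H4. The HIST1 cluster on chromosome 6 held 55 of them, the HIST2 and HIST3 clusters on chromosome 1 held 12 and 3, and the HIST4 gene lay alone on chromosome 12.

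Transcripts of PC3, an established human prostate cancer line, were sequenced after RNA selection on poly-T beads in 4 libraries titled siPRMT7, with the genotype label PRMT7 knockdown, and 4 titled siCtrl, with the genotype label WT. All 8 came from cells transfected with synthetic RNA or a negative control by Lipofectamine and grown for a further 48 h. Groups follow the titles, whose prefix si becomes sh in the library names. Whether replicates were separate cultures is not stated, so each p-value measures only the spread between these libraries, which may be technical.

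In the nucleosome, DNA is wrapped around the core histones H2A, H2B, H3 and H4, and H1 binds the DNA between nucleosomes. The replication-dependent genes are transcribed mainly in S phase, and most of their mRNAs end, without introns or a poly(A) tail, just after a stem-loop that the stem-loop binding protein SLBP recognises. Some of these loci also give longer transcripts that read past the stem-loop to a downstream polyadenylation signal, and poly-T selection favours such transcripts over the tailless ones. In bulk RNA, fewer cells in S phase and less histone RNA per cell cannot be told apart.

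The stem-loop marks where the tailless mRNA ends, so it was looked for in the annotated transcripts. They were searched over their whole length, coding sequence included. The search took 16 bases on the sense strand of the form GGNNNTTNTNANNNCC, in which the first 6 bases pair with the last 6 and G may pair with T. It was found in 32 of the 71 histone genes, or 45.1%, against 108 of 19851 other protein-coding genes, or 0.544%. The 4 most frequent forms are printed with the paired stem in capitals and the loop in lower case (GENCODE release 29 transcripts, GRCh38, sense strand).
Stem-loop of 17 genes of classes H2A, H2B and H3, HIST1H2BG, HIST2H2BE and HIST3H2A among them: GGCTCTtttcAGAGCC
Stem-loop of 5 genes of classes H2B and H3, HIST1H2BD and HIST1H2BC among them: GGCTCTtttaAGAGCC
Stem-loop of 5 H4 genes, HIST1H4E and HIST1H4H among them: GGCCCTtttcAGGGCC
Stem-loop of 3 H4 genes, HIST1H4I, HIST2H4A and HIST2H4B: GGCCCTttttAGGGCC
The H4 forms thus differ from the others inside the stem, and the stems stay paired in each printed form. The remaining 39 genes had no match within their annotated transcripts, which says nothing of the sequence beyond the annotated end.

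Library depth was 14526030 to 15724862 fragments, and 3 fragments, the floor used for detection, were 0.191 to 0.207 ppm of a library. Floors cover counting error only. The library of siPRMT7 replicate 2 stood apart, at 28.4 on a first principal component that held 31.4% of the variance, with the other 7 between -11.9 and 7.36. Epithelial markers of the line were present, with KRT19 at 286 to 379 FPKM (fragments per kilobase of gene length, scaled for library size), whereas CDH1 stayed below 0.6 FPKM and KLK2, KLK3 and CD3E were listed at 0. PECAM1 stood near 3 FPKM and COL1A1 near 7, without the other endothelial and fibroblast markers: VWF, CDH5, COL1A2 and DCN stayed below 0.1 FPKM. PRMT7, the targeted gene, had 4.62, 4.31, 5.01 and 4.82 FPKM in the siPRMT7 libraries, against 5.25, 4.86, 5.10 and 5.25 FPKM in the siCtrl libraries. The groups overlapped, with means of 4.69 ± 0.298 FPKM in siPRMT7 and 5.11 ± 0.183 FPKM in siCtrl (SD, n = 4 each) and a log2 fold change of -0.10 (two-sided exact permutation test, p = 0.0571, where 70 assignments allow no p below 0.0286). With libraries brought to the same FPKM total, the difference was -0.14 and p was 0.0286. The reduction in the libraries labelled siPRMT7 was therefore small, and each direction given for the histone genes rests on those labels.

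Histone transcripts were a small share of each library and came mostly from a few genes. They took 0.202, 0.238, 0.217 and 0.202% of fragments in the siPRMT7 libraries, against 0.197, 0.199, 0.201 and 0.191% in the siCtrl libraries. The 4 genes with most fragments held 57.8 to 60.6% of histone fragments in siPRMT7 and 60.2 to 61.7% in siCtrl. Mean FPKM over the 8 libraries, a level per length of gene model, reached 100 in 3 genes, HIST1H1C, HIST1H2BK and HIST1H2AC, and reached 10 in 16. The median over the 71 genes was 3.78 FPKM, so the typical histone gene lay far below the leading ones.

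Levels went with how far the gene model extends. In 25 genes the model runs more than 60 bases past the stem-loop or holds an exon beyond it, and their median level was 8.99 FPKM. In 7 genes it ends at the stem-loop, with a median of 5.66 FPKM. In 6 genes it goes past the stop codon but holds no match to the stem-loop, with a median of 3.77 FPKM. In 33 genes it stops at the stop codon, and their median was 0.944 FPKM. These 33 include all 5 histone genes with at least 80% of exonic bases shared with another gene. Those 5 had at most 1 fragment in any library, and their part in the lower median was not tested. Of the 16 genes at 10 FPKM or more, 11 had a model that extends past the stem-loop. The other 5 included the most abundant pair, HIST1H1C and HIST1H2BK, whose models are 642 and 381 bases of coding sequence alone. Fragments that lie beyond an annotated end are not in the table.

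**Figure D1:**
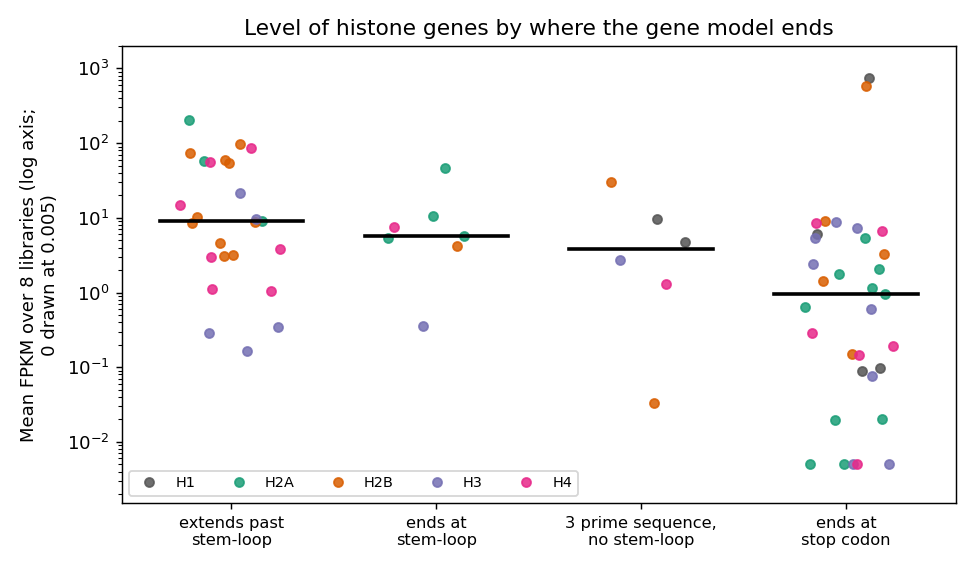
Mean FPKM over the 8 libraries (vertical log axis, with values of 0 drawn at 0.005) of each of the 71 histone genes, grouped by where the annotated gene model ends and coloured by histone class, with a bar at each group's median. The median is 8.99 FPKM for 25 models that extend past the stem-loop and 0.944 FPKM for 33 that end at the stop codon, and HIST1H1C and HIST1H2BK are the 2 high points in the last group.

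The test covered 48 of the 71 histone genes, those with at least 1 FPKM in at least 4 libraries. Of the other 23, 5 were listed at 0 in all 8 libraries, 9 had at most 3 fragments in any library, and 9 went above 3 fragments in some library. Over all 13436 genes tested, limma on log2(FPKM + 1) called 2 genes at an adjusted p under 0.05, or 0.0149%, and no histone gene was among them. At an unadjusted p under 0.05, 12 of the 48 were higher in siPRMT7, or 25%, where all genes gave 7.67%. By the same cut, 1 was lower, or 2.1%, where all genes gave 5.49%. Among the 12 was HIST1H4C, which passed the filter only through the siPRMT7 group. The 4 siPRMT7 values lay wholly above the 4 siCtrl values in 6 of the 48, or 12.5%, against 4.14% of all genes, and wholly below in 0, against 4.43% of all genes. Of 114 other tested protein-coding genes of at most 1000 bases, 21.9% were higher and 2.6% lower at an unadjusted p under 0.05. Their siPRMT7 values lay wholly above in 8, or 7%, and wholly below in 0. Limma's voom on rebuilt fragments also called 0 of the 48, with 12 called among all 13436 genes tested. With library weights, limma called 58 of the 13436 genes tested. Among these 58 were 2 of the 48, HIST1H2BG (adjusted p = 0.0366) and HIST2H2BE (adjusted p = 0.0339).

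The differences were small and mostly of the same sign. Of the 48 genes that passed the filter, 37 had a positive log2 fold change, or 77.1%, against 49.5% of all genes tested, and the median was 0.13, against -0.00 over all genes tested. By class, the positive ones were 4 of 4 for H1 with a median of 0.14, 9 of 11 for H2A with 0.22, 12 of 16 for H2B with 0.09, 5 of 7 for H3 with 0.12 and 7 of 10 for H4 with 0.11. By gene model, they were 19 of 21 where the model extends past the stem-loop, 6 of 6 where it ends there, 4 of 5 with no stem-loop, and 8 of 16 where it ends at the stop codon, with medians of 0.14, 0.28, 0.19 and 0.03. The split by model is limited by near-copies. Among the genes whose model ends at the stem-loop, HIST1H2AI, HIST1H4J, HIST2H2AA3 and HIST2H2AA4 have 62.3 to 100% of their 50-base windows in another gene. HIST1H4J is there at 0.24, while its near-copy HIST1H4K, at -0.21, is among those that end at the stop codon. These counts and medians describe the tested genes and carry no test of their own.

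**Figure D2:**
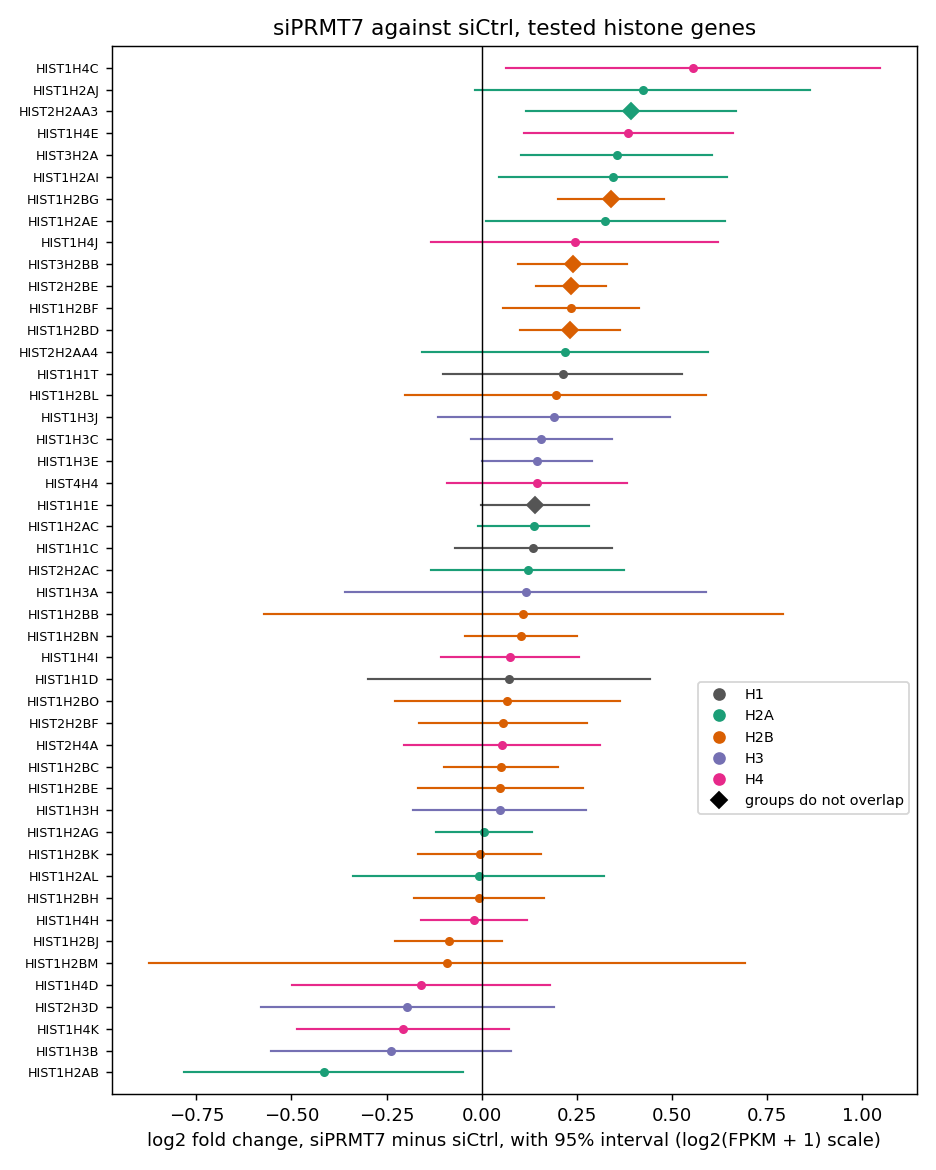
Log2 fold change of each tested histone gene, siPRMT7 minus siCtrl, on the log2(FPKM + 1) scale (horizontal axis), with its 95% interval from limma and coloured by class, and with diamonds for the 6 genes whose groups do not overlap. HIST2H4B, at 0.25 with an interval of -1.38 to 1.88, is left off so that the axis stays readable, and 37 of the 48 estimates, HIST2H4B included, lie above 0.

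Among linker histone genes, HIST1H1C was by far the most abundant. It had 687, 920, 789 and 707 FPKM in siPRMT7 libraries, against 694, 696, 738 and 681 FPKM in siCtrl libraries. Replicates 2 and 3 of siPRMT7 were high and the other siPRMT7 libraries lay within the siCtrl range, so the groups overlapped (log2 fold change 0.13, 95% interval -0.07 to 0.34). For HIST1H1C it was 0.05 without siPRMT7 replicate 2 and 0.01 with the mean level of ribosomal protein genes as a covariate. HIST1H1E, another somatic H1 gene, had 10.4, 9.27, 9.45 and 11.4 FPKM in siPRMT7, against 9.27, 9.12, 9.11 and 8.78 FPKM in siCtrl. Its groups were apart by a margin that vanishes on rounding (9.271 against 9.268 FPKM), with a log2 fold change of 0.14, SE 0.06 and adjusted p of 0.383 by limma, and it was 0.09 without siPRMT7 replicate 4. HIST1H1D averaged 6.28 ± 1.25 FPKM in siPRMT7 and 5.95 ± 1.38 FPKM in siCtrl, and HIST1H1T, the testis H1 gene, 5.2 ± 0.493 FPKM and 4.43 ± 1.15 FPKM in the same order (SD, n = 4 each). In both, the groups overlapped. HIST1H1A and HIST1H1B had at most 3 fragments in any library. Summed over the 6 genes, H1 came to 710, 940, 812 and 729 FPKM in siPRMT7, against 712, 716, 757 and 703 FPKM in siCtrl, a ratio of means of 1.1 that follows HIST1H1C.

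**Figure D3:**
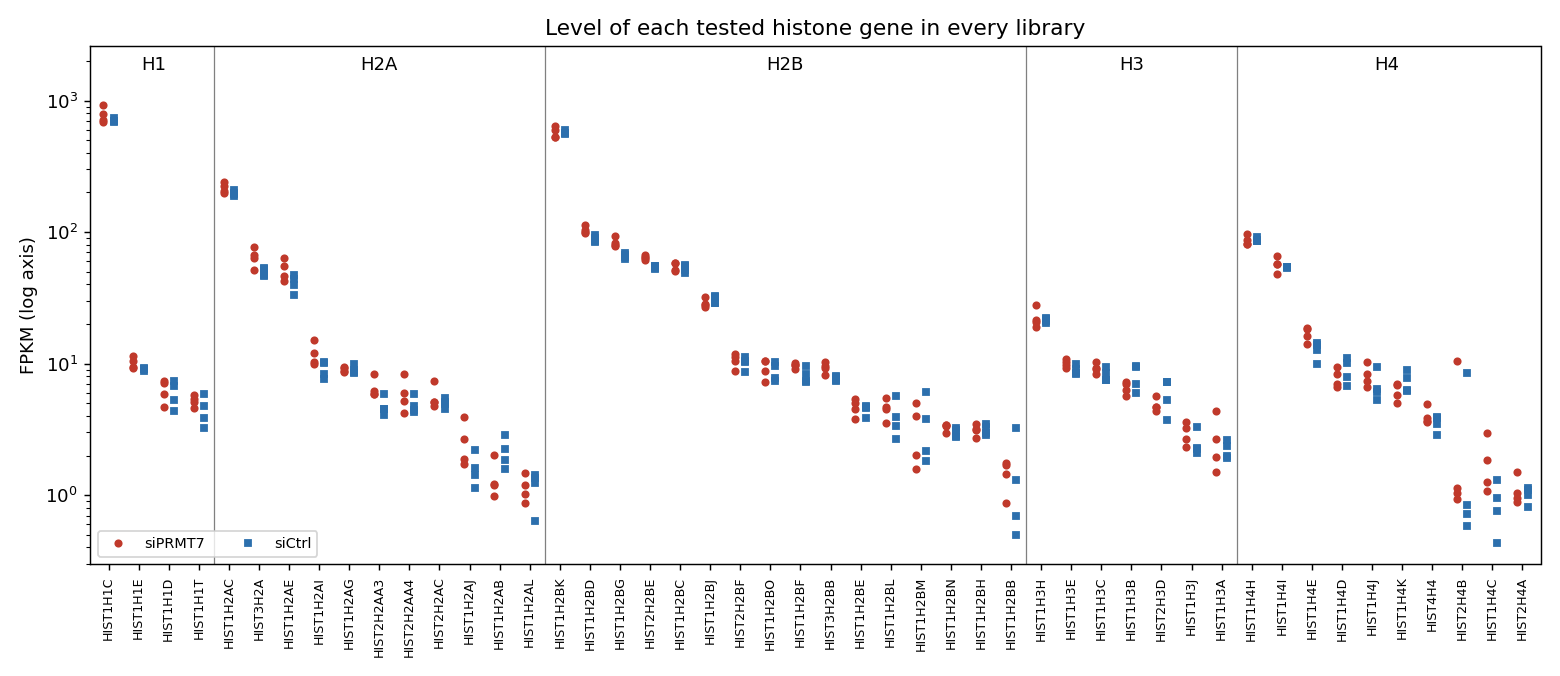
FPKM of each tested histone gene in every library (vertical log axis), ordered within class by mean level, with circles for the 4 siPRMT7 libraries on the left of each position and squares for the 4 siCtrl libraries on the right. HIST1H1C and HIST1H2BK lie highest, at 524 to 920 FPKM, and for most genes the circles and squares share a range.

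H2A had the largest ratio between groups of the 5 class sums, although H1 differed by more FPKM. The 17 genes came to 334, 430, 393 and 358 FPKM in siPRMT7, against 334, 328, 345 and 303 FPKM in siCtrl, a ratio of means of 1.16. Replicate 1 of siPRMT7 lay within the siCtrl range and the other siPRMT7 libraries above it. HIST1H2AC, the leading H2A gene, had 200, 239, 224 and 206 FPKM in siPRMT7, against 199, 193, 208 and 188 FPKM in siCtrl (log2 fold change 0.14, or 0.09 without siPRMT7 replicate 2, 95% interval -0.01 to 0.28), with overlap. HIST3H2A had 51.7, 77.4, 66.4 and 63.2 FPKM in siPRMT7, against 47.5, 52.8, 53.6 and 46.0 FPKM in siCtrl, so only siPRMT7 replicate 1 lay inside the siCtrl range. Its log2 fold change was 0.35 (SE 0.11, adjusted p = 0.266 by limma). HIST1H2AE had 42.3, 63.0, 54.9 and 46.1 FPKM in siPRMT7, against 47.0, 39.7, 43.7 and 33 FPKM in siCtrl, with overlap and an adjusted p of 0.366 by limma. HIST1H2AI averaged 11.9 ± 2.33 FPKM in siPRMT7 and 9.07 ± 1.28 FPKM in siCtrl, a log2 fold change of 0.34, and 62.3% of its 50-base windows also occur in another gene, HIST1H2AJ leading.

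The near-identical copies HIST2H2AA3 and HIST2H2AA4 have to be read together. HIST2H2AA3 had 5.86, 8.37, 6.18 and 5.86 FPKM in siPRMT7, against 5.85, 4.56, 4.09 and 4.52 FPKM in siCtrl, so the groups touched without overlap, with a log2 fold change of 0.39 (adjusted p = 0.265 by limma). All of its 50-base windows, 100%, occur in another gene, HIST2H2AA4 leading, and the sources used here do not say how fragments were assigned between copies. The sum of both copies was 10.1, 16.7, 11.4 and 11.8 FPKM in siPRMT7, against 11.8, 8.99, 8.89 and 8.80 FPKM in siCtrl. As a sum the groups overlapped, through siCtrl replicate 1. HIST1H2AB was the only histone gene with an unadjusted p under 0.05 that was lower in siPRMT7: it had 6, 7, 12 and 7 fragments there and 18, 14, 11 and 9 fragments in siCtrl, with a log2 fold change of -0.41, an adjusted p of 0.333 by limma, and overlap.

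H2B held 4 of the 6 genes without overlap, and in each of them the gene model extends past the stem-loop. HIST1H2BG (chromosome 6, 26215159 to 26216692, minus strand, GRCh38) had 80.1, 93.4, 83.0 and 78.1 FPKM in siPRMT7, against 62.4, 66.6, 69.5 and 64.7 FPKM in siCtrl. The lowest siPRMT7 library was well above the highest siCtrl library. HIST1H2BG had a log2 fold change of 0.34 with SE 0.06 and a 95% interval of 0.20 to 0.48, and limma's adjusted p was 0.124. The annotated gene is a single exon of 1534 bases that runs 1059 bases past the stem-loop, and none of its 50-base windows occurs in another gene.

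HIST2H2BE (chromosome 1, 149884459 to 149886652, minus strand) varied less between replicates than HIST1H2BG. It had 61.3, 64.7, 66.5 and 63.1 FPKM in siPRMT7, against 55.1, 53.2, 55.5 and 52.7 FPKM in siCtrl, and every siPRMT7 value was above every siCtrl value. The log2 fold change of HIST2H2BE was 0.24 (SE 0.04, 95% interval 0.14 to 0.33, adjusted p = 0.124 by limma), and its unadjusted p, 0.000258, was the smallest of the 48. HIST1H2BD, which carries the second stem-loop form printed, had 99.4, 113, 104 and 98.7 FPKM in siPRMT7, against 85.9, 89.7, 94.2 and 83.4 FPKM in siCtrl. Its groups were apart, with a log2 fold change of 0.23 (SE 0.06, adjusted p = 0.200 by limma). HIST3H2BB had 9.52, 9.18, 10.2 and 8.20 FPKM in siPRMT7, against 8.02, 7.51, 7.37 and 7.84 FPKM in siCtrl, again without overlap but with a narrow gap, a log2 fold change of 0.24 and an adjusted p of 0.214 by limma.

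**Figure D4:**
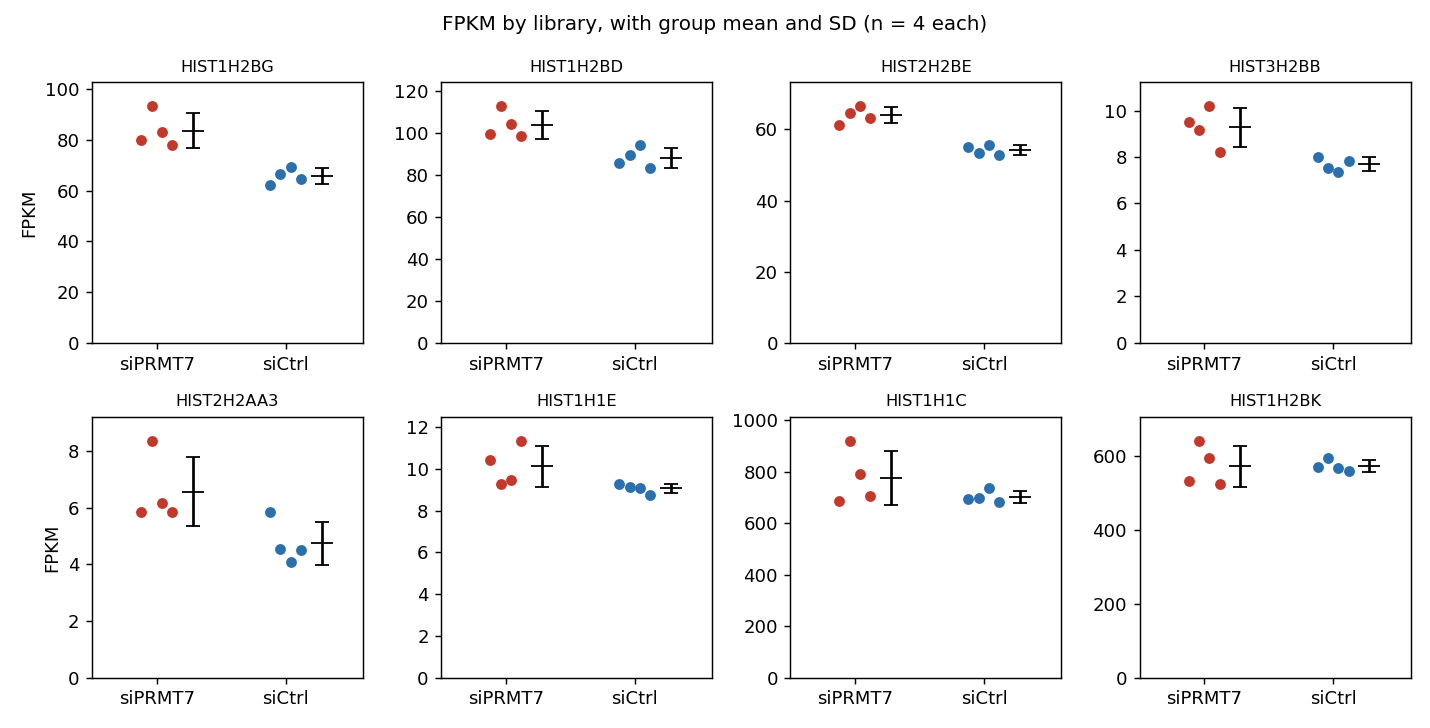
FPKM by library (vertical axes from 0) of the 6 histone genes whose groups do not overlap and of HIST1H1C and HIST1H2BK, with siPRMT7 on the left and siCtrl on the right, and with the mean and SD of 4 libraries beside the points. HIST1H2BG and HIST2H2BE show a gap between groups, while HIST2H2AA3 and HIST1H1E only touch and HIST1H2BK has the same mean of 573 FPKM in both.

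HIST1H2BK, the most abundant H2B gene, gave no such difference. It had 532, 641, 594 and 524 FPKM in siPRMT7, against 570, 596, 567 and 560 FPKM in siCtrl, with a log2 fold change of -0.01 and a 95% interval of -0.17 to 0.16. The siPRMT7 libraries spread on both sides of the siCtrl range. Of its 50-base windows, 74.1% occur in another gene, H2BFS leading. HIST1H2BC averaged 54.7 ± 4.28 FPKM in siPRMT7 and 52.7 ± 3.22 FPKM in siCtrl, and HIST1H2BJ 28.8 ± 2.08 FPKM and 30.6 ± 1.90 FPKM in the same order. Over the 18 H2B genes the sum was 912, 1054, 1000 and 901 FPKM in siPRMT7, against 903, 948, 923 and 903 FPKM in siCtrl, a ratio of means of 1.05 with overlap.

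H3 genes were lower in level, and their groups overlapped in each of the 7 tested. HIST1H3H, the highest, had 19.0, 27.8, 20.6 and 21.5 FPKM in siPRMT7, against 22.1, 20.2, 21.8 and 21.1 FPKM in siCtrl, with siPRMT7 replicate 2 alone above the siCtrl range (log2 fold change 0.05, 95% interval -0.18 to 0.27). HIST1H3E, with a loop of its own form, averaged 10.0 ± 0.682 FPKM in siPRMT7 and 9.0 ± 0.680 FPKM in siCtrl, a log2 fold change of 0.14 with an adjusted p of 0.379 by limma. HIST1H3C averaged 9.25 ± 0.841 FPKM in siPRMT7 and 8.21 ± 0.903 FPKM in siCtrl. HIST1H3B and HIST2H3D had negative log2 fold changes, -0.24 and -0.20. The sum of the 15 H3 genes was 55.3, 68.5, 57.6 and 58.6 FPKM in siPRMT7, against 60.2, 58.4, 58.0 and 60.6 FPKM in siCtrl. The ratio of means was 1.01 on the deposited scale and 0.981 with libraries brought to the same total, so H3 had no direction that held across scalings.

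H4 estimates had both signs, 7 positive and 3 negative. The 3 negative ones had 95% intervals that include 0, as did the positive ones of HIST1H4I, HIST1H4J, HIST2H4A, HIST2H4B and HIST4H4. HIST1H4H, the highest, had 81.5, 96.7, 86.6 and 80.6 FPKM in siPRMT7, against 85.1, 87.7, 91.5 and 85.5 FPKM in siCtrl, with a log2 fold change of -0.02 and a 95% interval of -0.16 to 0.12. HIST1H4I had 48.4, 65.9, 57.6 and 57.2 FPKM in siPRMT7, against 54.1, 54.5, 54.3 and 53.4 FPKM in siCtrl, where the siCtrl libraries sat close together inside the siPRMT7 spread. HIST1H4E had 14.1, 18.5, 18.4 and 16.3 FPKM in siPRMT7, against 13.8, 14.5, 12.6 and 9.87 FPKM in siCtrl, so the groups overlapped only at siPRMT7 replicate 1 (log2 fold change 0.39, SE 0.12, adjusted p = 0.269 by limma). HIST1H4C had the largest positive estimate of the 48, 0.55, but on 20, 12, 7 and 8 fragments in siPRMT7 and 3, 9, 5 and 6 fragments in siCtrl. It reached 1 FPKM in 4 siPRMT7 libraries and 1 siCtrl library, so it passed the filter only through the siPRMT7 group. HIST1H4C counts among the 37 positive genes and among the 12 higher at an unadjusted p under 0.05 by limma. HIST1H4D and HIST1H4K had negative estimates, -0.16 and -0.21. Of the 50-base windows of HIST1H4K, 100% occur in another gene, HIST1H4J leading, and HIST1H4J had a positive estimate, 0.24. The sum of HIST1H4J and HIST1H4K averaged 14.3 ± 1.97 FPKM in siPRMT7 and 14.1 ± 2.59 FPKM in siCtrl (SD, n = 4 each). The 15 H4 genes summed to 190, 214, 192 and 184 FPKM in siPRMT7, against 186, 189, 183 and 189 FPKM in siCtrl, with overlap and a ratio of means of 1.05.

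HIST2H4B was unlike the other members in its spread within groups. It had 10.5, 0.932, 1.14 and 1.03 FPKM in siPRMT7, against 0.848, 0.713, 0.582 and 8.54 FPKM in siCtrl. Single libraries, siPRMT7 replicate 1 and siCtrl replicate 4, were thus far above the rest of their groups, on 314 and 239 fragments. Of its 50-base windows, 97.2% occur in another gene, HIST2H4A leading, and HIST2H4A stayed between 0.808 and 1.5 FPKM in the 8 libraries. Summing the copies left the same pair of high libraries, at 11.4 and 9.35 FPKM.

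Summed over all 71 genes, histone transcripts came to 2201, 2707, 2455 and 2231 FPKM in siPRMT7, against 2195, 2239, 2266 and 2157 FPKM in siCtrl. The means were 2398 ± 235 FPKM in siPRMT7 and 2214 ± 47.8 FPKM in siCtrl (SD, n = 4 each), a ratio of 1.08, and the groups overlapped. With libraries brought to the same FPKM total, the ratio was 1.05 over all 71 genes, 1.07 for H1, 1.12 for H2A, 1.021 for H2B, 1.015 for H4 and, below 1, 0.981 for H3. Without HIST1H1C and HIST1H2BK, left out after their values were seen, the other 69 genes summed to 982, 1145, 1072 and 999 FPKM in siPRMT7, against 931, 947, 961 and 917 FPKM in siCtrl. For that sum the groups did not overlap, and the ratio of means was 1.12, or 1.085 at the same FPKM total.

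H2A and H2B genes often lie head to head, sharing the DNA between their starts, so both members of such pairs were set side by side. There were 11 pairs on opposite strands with starts at most 500 bases apart, and in 7 of them both genes were tested. In HIST1H2AE and HIST1H2BG, whose starts are 283 bases apart, the log2 fold changes were 0.32 and 0.34. In HIST3H2A and HIST3H2BB, 234 bases apart, they were 0.35 and 0.24. In HIST2H2AC and HIST2H2BE, 323 bases apart, they were 0.12 and 0.24 (the first of these 0.00 without siPRMT7 replicate 2), and the H2A gene had 5.29 FPKM over the 8 libraries while the H2B gene had 59.0 FPKM. In HIST1H2AC and HIST1H2BC, 219 bases apart, they were 0.14 and 0.05, and in HIST1H2AI and HIST1H2BL, 268 bases apart, 0.34 and 0.19. The signs differed in HIST1H2AG and HIST1H2BJ (0.01 and -0.09) and in HIST1H2AJ and HIST1H2BM (0.42 and -0.09). Each of these genes has a 95% interval that includes 0. HIST1H2AJ had 7 to 22 fragments per library and HIST1H2BM 9 to 37. Of the 50-base windows of HIST1H2AJ, 83.7% occur in another gene, HIST1H2AI leading. Without siPRMT7 replicate 4, HIST1H2AJ was 0.25. Levels differed within pairs as well, most in HIST1H2AH and HIST1H2BK, at 0.944 and 573 FPKM.

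The promoters of HIST1H2BG and HIST2H2BE, the histone genes with the smallest p, are shown because each shares its start region with an H2A gene. RefSeq promoters, 250 bases before to 50 after the start (GRCh38.p14), matched 62 of the 71 genes. The motif CCAAT, which the factor NF-Y binds, was searched on both strands. So was TATAAA, the core promoter element bound by TBP. The last motif searched, again on both strands, was ATTTGCAT, the octamer that POU factors bind. Capitals mark the matches.
HIST1H2BG promoter, chr6:26216639-26216938, minus strand: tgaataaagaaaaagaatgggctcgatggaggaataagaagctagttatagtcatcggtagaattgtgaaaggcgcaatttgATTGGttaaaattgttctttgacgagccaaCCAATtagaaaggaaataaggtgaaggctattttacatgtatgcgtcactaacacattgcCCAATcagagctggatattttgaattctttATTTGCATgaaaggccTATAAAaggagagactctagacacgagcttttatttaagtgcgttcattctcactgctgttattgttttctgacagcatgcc
HIST2H2BE promoter, chr1:149886633-149886932, minus strand: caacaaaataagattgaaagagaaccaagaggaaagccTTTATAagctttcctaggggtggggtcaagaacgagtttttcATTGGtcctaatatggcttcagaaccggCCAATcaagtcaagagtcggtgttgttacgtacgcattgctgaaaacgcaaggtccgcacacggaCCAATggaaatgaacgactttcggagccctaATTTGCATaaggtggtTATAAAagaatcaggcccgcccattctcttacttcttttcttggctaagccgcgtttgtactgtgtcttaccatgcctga
Both hold 3 CCAAT matches and an octamer match a few bases before a TATAAA match. CCAAT was found in 83.9% of the 62 histone promoters and in 35.7% of all 27305 promoters, TATAAA in 66.1% and 11.95%, and ATTTGCAT in 38.7% and 1.80%. The octamer was in 81.2% of H2B and 68.8% of H2A promoters and in none of the H1, H3 and H4 promoters. CCAAT was in 100% of the H1, H2A, H2B and H3 promoters and in 23.1% of the H4 promoters. A match is a string in this window and does not show that a factor binds there.

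The 23 genes that were not tested were low in both groups. HIST1H4B averaged 1.34 ± 0.597 FPKM in siPRMT7 and 0.919 ± 0.641 FPKM in siCtrl, and HIST1H2AH 0.647 ± 0.224 FPKM in siPRMT7 and 1.24 ± 1.02 FPKM in siCtrl, where 17 fragments in siCtrl replicate 2 stood above the rest (SD, n = 4 each). The other genes that passed 3 fragments somewhere were HIST2H2AB, HIST1H3F, HIST1H3G, HIST2H3A, HIST2H3C, HIST3H3 and HIST1H4A, with means of at most 0.546 FPKM in siPRMT7 and 0.763 FPKM in siCtrl. HIST1H1A, HIST1H1B, HIST1H2AA, HIST1H2AD, HIST1H2BA, HIST1H2BI, HIST1H3I, HIST1H4F and HIST1H4G never passed 3 fragments. HIST1H2AA and HIST1H2BA, known as testis genes, are a divergent pair with starts 250 bases apart, and neither had more than 2 fragments in any library.

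Part of the histone set could not be counted apart from other genes. In 13 of the 71 genes, 10 of them tested, over 50% of the 50-base windows occur in another gene. At least 80% of the exonic bases of 5 genes belong to another annotated gene as well, and these had at most 1 fragment in any library, with HIST2H3PS2, HIST1H3D, HIST1H2AK and HIST1H2AM at 0 in all 8. HIST1H4L was at 0 in all 8 libraries with no such overlap. Of 17 protein-coding genes wholly covered by exons of the opposite strand, 17 were at 0, against 15.0% of 11097 protein-coding genes with no shared exonic base. The sources used here do not give the strand setting of the counting. Among the 41 tested genes with no shared exonic base, 31 had a positive log2 fold change, with a median of 0.14. Among the 34 tested genes with at most 10% of windows shared, 26 did, with a median of 0.12.

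Genes with more fragments varied less between replicates as a median. Where the lowest library of a group had at least 100 fragments, the median coefficient of variation between replicates was 9.0% in siPRMT7 and 6.2% in siCtrl. Below 100 fragments it was 19.9% in siPRMT7 and 22.7% in siCtrl. HIST1H1C, with at least 6344 fragments in every library, had 13.6% in siPRMT7 and 3.53% in siCtrl.

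Short genes outside the histone set had fold changes of similar size, and 50 of the 71 histone gene models are at most 1000 bases long. Of 114 other tested protein-coding genes of that length, 81 had a positive log2 fold change, with a median of 0.15. Their median deviation from siCtrl was -0.03, 0.36, 0.17 and 0.08 in the siPRMT7 libraries, against -0.04, -0.03, 0.07 and -0.03 in the siCtrl libraries, so siPRMT7 replicate 2 stood out. The 30 tested histone genes of at most 1000 bases had a median of 0.13, with 0.09, 0.17, 0.15 and 0.02 in the siPRMT7 libraries, against -0.07, 0.02, 0.01 and -0.04 in the siCtrl libraries. The 18 histone genes over 1000 bases had a median of 0.12 and a positive estimate in 16, with 0.14, 0.19, 0.05 and 0.07 in the siPRMT7 libraries, against 0.03, 0.01, -0.03 and -0.02 in the siCtrl libraries. Of the other tested protein-coding genes over 1000 bases, 48.3% had a positive one. Cytosolic ribosomal protein genes were positive in 78 of 81, with a median of 0.12 and library values of -0.06, 0.35, 0.17 and 0.04 in siPRMT7, against -0.03, -0.05, 0.09 and -0.01 in siCtrl. With each library's trend on gene length removed, 33 of the 48 histone genes were positive with a median of 0.09. With the ribosomal protein level as a covariate it was 33 of 48 with 0.09, and without siPRMT7 replicate 2 it was 34 of 47 with 0.11.

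**Figure D5:**
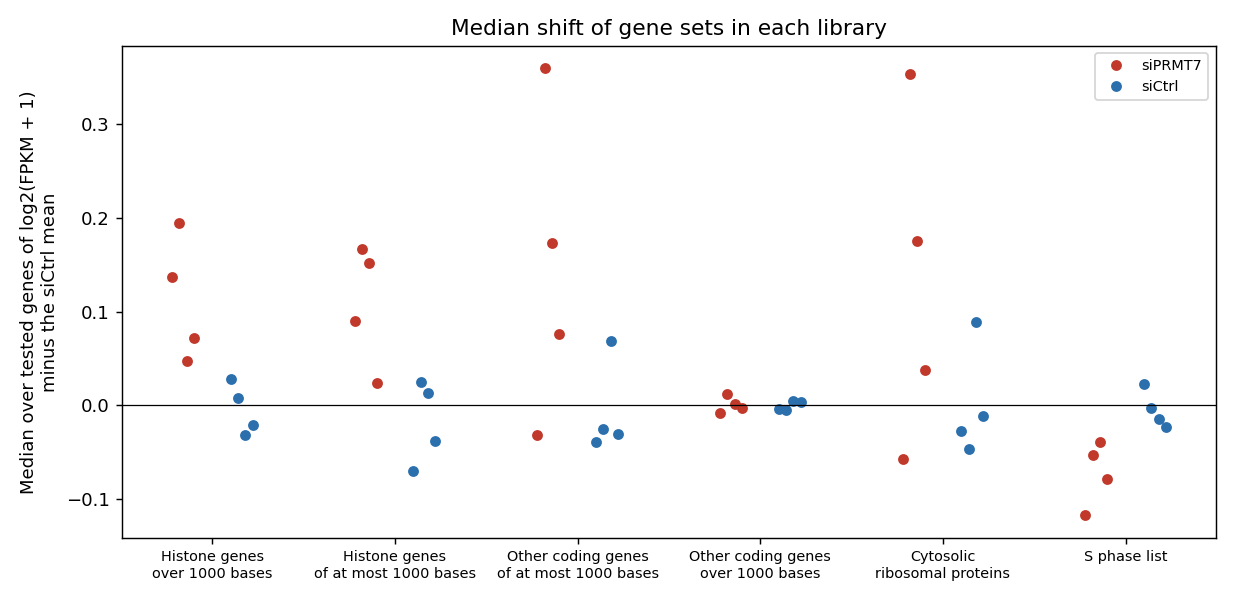
Median over tested genes of log2(FPKM + 1) minus the siCtrl mean (vertical axis) for 6 gene sets, with 1 point per library and siPRMT7 on the left of each pair. Short non-histone genes and ribosomal protein genes reach 0.36 and 0.35 in siPRMT7 replicate 2, and long histone genes run from 0.05 to 0.19 in siPRMT7. The S phase list runs from -0.12 to -0.04 in siPRMT7 and from -0.02 to 0.02 in siCtrl.

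Genes that act with the replication-dependent histones were followed in lists, none of whose members passed at an adjusted p under 0.05 by limma. Of 11 tested replication-independent histone genes, 8 had a positive log2 fold change, with a median of 0.06. Most such genes are also expressed outside S phase and give mRNA with a poly(A) tail. H3F3B, a replacement H3 gene, averaged 208 ± 22.9 FPKM in siPRMT7 and 179 ± 7.42 FPKM in siCtrl (log2 fold change 0.21, adjusted p = 0.303 by limma). H1F0, the linker histone gene of slowly dividing cells, averaged 323 ± 17.5 FPKM in siPRMT7 and 293 ± 11 FPKM in siCtrl (log2 fold change 0.14, adjusted p = 0.334 by limma). In both the groups overlapped.

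Of 24 genes for histone transcription and mRNA 3′ processing, 13 were positive, with a median of 0.02. SLBP had 24.4, 29.7, 28.7 and 26.7 FPKM in siPRMT7, against 25.4, 24.4, 28.6 and 24.4 FPKM in siCtrl, with overlap (log2 fold change 0.09, 95% interval -0.08 to 0.25). NPAT, the coactivator of histone gene transcription, had 5.82, 4.42, 4.45 and 4.86 FPKM in siPRMT7, against 5.61, 5.89, 5.47 and 6.16 FPKM in siCtrl, a log2 fold change of -0.21 (adjusted p = 0.319 by limma). Only siPRMT7 replicate 1 lay in the siCtrl range. CASP8AP2, a partner of the U7 processing complex, was lower in siPRMT7 without overlap, at -0.19 (adjusted p = 0.288 by limma). So was ERI1, an exonuclease that trims the stem-loop, at -0.18 (adjusted p = 0.379 by limma). ZNF473 and LSM11 were also lower without overlap, at -0.17 and -0.11. Of the 24 genes, 4 thus lay wholly below and 0 wholly above, against 4.43% and 4.14% of all genes.

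The histone chaperone and S phase lists leaned to the other side from the histone genes. Of 16 tested chaperone genes, 12 were negative, or 75%, with a median of -0.08, and 4 were lower at an unadjusted p under 0.05, or 25%, against 5.49% of all genes. SUPT16H, a subunit of the chaperone FACT, had 19.9, 18.7, 19.3 and 19.4 FPKM in siPRMT7, against 21.9, 22.1, 20.9 and 22.7 FPKM in siCtrl, with no overlap (log2 fold change -0.17, adjusted p = 0.189 by limma). NASP, a chaperone of H3 and H4, stood at -0.13, and HJURP, the chaperone of the centromeric H3 variant, at -0.18. Of 20 S phase genes, 16 were negative, or 80%, against 50.5% of all genes tested, with a median of -0.10. At an unadjusted p under 0.05, 7 were lower, or 35%, against 5.49% of all genes, and 0 were higher. RRM1, the large subunit of ribonucleotide reductase, had 17, 18.7, 17.3 and 17.1 FPKM in siPRMT7, against 19.9, 20.4, 21.1 and 21.1 FPKM in siCtrl, without overlap (log2 fold change -0.22, adjusted p = 0.147 by limma). MCM4, of the replicative helicase, stood at -0.15 and UHRF1, of DNA methylation maintenance, at -0.15. No test set these lists against the histone genes.

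Small RNAs that have no poly(A) tail were followed beside the histone genes. Of 21 table rows for such RNAs, 12 were at 0 in all 8 libraries and 3 were tested. Together they took 14.3, 18.1, 16.9 and 16.7 ppm of fragments in siPRMT7, against 10.4, 10.4, 17.2 and 20.4 ppm in siCtrl, with siCtrl replicates spread across the siPRMT7 range. RN7SL2, an RNA of the signal recognition particle, averaged 48.7 ± 5.32 FPKM in siPRMT7 and 42.3 ± 16 FPKM in siCtrl, a log2 fold change of 0.27 with an adjusted p of 0.609 by limma. RN7SL3 and RNU5A-1 stood at 0.11 and 0.25, each with a 95% interval that includes 0. RNU5A-1 had only 2, 2, 3 and 6 fragments in siPRMT7 and 3, 6, 1 and 1 fragments in siCtrl. The part of tailless RNA in the histone values was not tested.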

How the data were processed

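The deposited table holds FPKM values that the authors made for 58735 genes in 8 libraries. Per the submitters' processing notes, the tools were HISAT2 2.1.0, featureCounts 1.6.3 and cutadapt 2.5 and the build was a mouse one. The identifiers are human, and position and length of all 58735 genes match GENCODE release 29 (GRCh38). FPKM times gene length came out as whole fragments for 100% of values (tolerance 0.01), so fragments were rebuilt, but no count model was the main test. Genes with at least 1 FPKM in at least 4 libraries were tested on log2(FPKM + 1) with limma 3.58.1 (R 4.3.3, variance trend, two-sided, Benjamini-Hochberg adjustment over all genes tested, threshold 0.05), which understates changes of low genes and was tested on simulated data. The histone genes, lists and alternatives were chosen with earlier results of these data known. Named genes are PRMT7, the 3 most abundant genes of each class, the 10 smallest p among histone genes, divergent pairs, SLBP, NPAT and up to 3 genes per list with the smallest p; others were named after their values were seen. Stem-loops and motifs were matched as strings. Windows of 50 bases were compared on the sense strand across all annotated transcripts. The opposite strand was compared only for genes on the chromosomes that hold the histone genes. Genes that overlap the histone gene in question were left out of its shared windows.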

Additional observations from a re-analysis of the deposited data

Results flagged for a closer look

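Of 106 groups of 4 libraries examined, in which the gap between the most extreme library and its neighbour was set against the group's range, 5 exceeded the 95% critical value of 0.829. Chance alone flags about 1 in 20 such groups. HIST2H2AA3 had 8.37 FPKM in siPRMT7 replicate 2, with the next siPRMT7 library at 6.18 FPKM. HIST2H2AC had 7.34 FPKM in the same library, with the next at 5.12 FPKM. HIST2H4B was flagged in both groups, at 10.5 FPKM in siPRMT7 replicate 1, where the next library had 1.14 FPKM, and at 8.54 FPKM in siCtrl replicate 4, where the next had 0.848 FPKM. HIST1H3J had 3.32 FPKM in siCtrl replicate 3, with the next at 2.27 FPKM.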

How the results depend on the processing

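Of the 48 histone genes tested, 33 to 39 had a positive log2 fold change under each alternative that kept the filter and the full set, leave-one-out fits (46 to 48 genes tested) included. None was called under these, except 2 with library weights. The median of 0.128 moved to 0.0791 with no filter (66 genes) and to 0.0880 when the ribosomal protein level was a covariate. The count of 2 genes called over all genes was 1 with a pseudocount of 0.1, with FPKM of at least 5 or with quantile normalization, 5 with no filter, 12 with voom, 58 with library weights and 28 with the covariate. Leaving out 1 library gave 0 to 2, with 0 without siPRMT7 replicate 1 or 3 or any siCtrl replicate. PRMT7 moved to -0.139 with libraries at the same FPKM total, with p at the smallest the exact permutation test allows. The cause of these shifts was not tested.

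Same-numbered libraries had correlations of -0.031 to 0.061, so the numbers were not taken to pair them, and a replicate block gave 0 genes called and the same histone median, 0.128. Log2 fold changes near 0 changed sign. HIST1H2AG became -0.0315 at the same FPKM total, -0.0247 with library weights, -0.0594 without the length trend and -0.0003 with the covariate. HIST1H3H became -0.0185 with library weights, -0.0162 without the length trend and -0.0842 with the covariate. HIST1H2BM became 0.131 with library weights. With the covariate, HIST1H2BM was 0.0240, HIST1H2BC -0.0203, HIST1H4I -0.0304, HIST2H2AC -0.0161 and SLBP -0.0033. Leaving out 1 library gave HIST1H1D -0.0461 to 0.183, HIST1H2AG -0.0170 to 0.0504, HIST1H2BK -0.0615 to 0.0354, HIST1H2BM -0.299 to 0.161, HIST1H3H -0.0612 to 0.114, HIST1H4H -0.0768 to 0.01 and RN7SL3 -0.145 to 0.266. Genes under 100 fragments had the wider median spread between replicates.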
